A study of Mus musculus with 5 samples.

Results

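The genes that carried Cxxc1, the genes that carried H3K4me3 and the genes that carried both were compared in wild-type (WT) thymocytes of the double-positive (DP) stage, at which developing T cells bear both CD4 and CD8. The members were the 21410 protein-coding genes on the autosomes, of 22372 protein-coding genes in all. A gene was scored by the listed 200-bp windows within 1 kb of any of its transcription start sites (TSS), and again by those in the gene body plus 10 kb upstream. Each gene was placed as both, Cxxc1 only, H3K4me3 only or neither.

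ChIP-seq (sequencing of DNA recovered by chromatin immunoprecipitation) used DP thymocytes from WT mice, which carried floxed Cxxc1 alleles without Cre (Cxxc1 fl/fl), and of Cxxc1-deficient mice, which carried the same alleles with hCD2-Cre, a transgene that deletes in early thymocytes and other immune cells. The series holds 5 libraries, 1 for each antibody and genotype and 1 WT input, and the lists used were WT Cxxc1, WT H3K4me3 and, for 1 readout, Cxxc1-deficient H3K4me3. Mice were 3 to 4 weeks old, the study's general age, and the number pooled per library was not given in the sources used here. The genotype label of the deficient libraries names a heterozygote (Cxxc1+/-) while their titles name a knockout, and the Cxxc1 list was taken as WT from the study's methods because its own name gives no genotype. With 1 library per list no value has a replicate check and no p-value is given. The 95% intervals (Wilson for shares, order statistics for medians) cover counting error over genes only, or over windows where windows are counted.

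Cxxc1 (CXXC finger protein 1) binds DNA through a CXXC zinc finger that recognises unmethylated CpG dinucleotides. It is a subunit of the Setd1 complexes, the enzymes that trimethylate lysine 4 of histone H3. The product, H3K4me3, is found mainly over the starts of active or poised genes. Most mammalian promoters that carry this mark lie in CpG islands, where CpG is dense and usually unmethylated.

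The windows below were chosen to show what the lists held in each class. They are 200-bp windows of mm9 (strand of the gene, 5′ to 3′, CpG in capitals) with the highest RPM (tags per 1000000 mapped tags) among those of the leading genes that overlap no annotated exon, and for genes with both they had to be in both lists. Megf9, which encodes a membrane protein with EGF-like domains, is shown at chr4:70196201-70196400 (minus strand, 0.7 RPM of Cxxc1 and 0.2 RPM of H3K4me3), with 19 CpG.
Megf9: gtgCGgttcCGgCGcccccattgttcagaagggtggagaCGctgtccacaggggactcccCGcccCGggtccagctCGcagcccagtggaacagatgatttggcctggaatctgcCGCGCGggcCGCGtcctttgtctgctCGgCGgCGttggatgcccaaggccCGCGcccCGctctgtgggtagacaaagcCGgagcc
Brwd1, a bromodomain and WD repeat gene, is shown at chr16:96304401-96304600 (minus strand, 0.5 RPM of Cxxc1 and 0.6 RPM of H3K4me3), with 18 CpG.
Brwd1: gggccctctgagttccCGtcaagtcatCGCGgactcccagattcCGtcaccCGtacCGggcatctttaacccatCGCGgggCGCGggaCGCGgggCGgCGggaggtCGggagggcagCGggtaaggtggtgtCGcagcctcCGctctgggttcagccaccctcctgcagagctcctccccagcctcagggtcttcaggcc
Genes with Cxxc1 only are represented by the potassium channel gene Kcnt1 at chr2:25734001-25734200 (plus strand, 0.7 RPM of Cxxc1), with 1 CpG, and by 2700081O15Rik at chr19:7492601-7492800 (plus strand, 0.5 RPM of Cxxc1), with 11 CpG.
Kcnt1: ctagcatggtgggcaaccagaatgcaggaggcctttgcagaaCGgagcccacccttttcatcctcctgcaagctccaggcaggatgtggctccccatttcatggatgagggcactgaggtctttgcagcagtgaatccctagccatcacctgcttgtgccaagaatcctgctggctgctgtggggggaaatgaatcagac
2700081O15Rik: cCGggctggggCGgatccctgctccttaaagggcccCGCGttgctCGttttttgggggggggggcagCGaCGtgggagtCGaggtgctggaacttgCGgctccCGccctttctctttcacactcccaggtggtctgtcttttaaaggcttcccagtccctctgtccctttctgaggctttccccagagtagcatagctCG
The retinoic acid receptor gene Rara had the most promoter H3K4me3 of the genes without Cxxc1, after peaks above 10 RPM were left out. It is shown at chr11:98801801-98802000 (plus strand, 0.7 RPM of H3K4me3), with 3 CpG.
Rara: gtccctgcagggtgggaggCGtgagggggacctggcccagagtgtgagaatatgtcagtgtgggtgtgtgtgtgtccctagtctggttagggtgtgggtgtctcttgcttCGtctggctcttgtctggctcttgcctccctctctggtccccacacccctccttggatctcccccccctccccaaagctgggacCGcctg
The windows of the genes with both held more CpG letters than those of Kcnt1 and Rara, and the counts over all promoter windows are given further down.

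Most genes with H3K4me3 at the promoter had no Cxxc1 there, and most genes with Cxxc1 at the promoter had no H3K4me3 there. Promoter H3K4me3 was listed at 6939 genes (32.4%) and promoter Cxxc1 at 433 genes (2.02%). Both were listed at 199 genes (0.929%, 0.809% to 1.07%), Cxxc1 only at 234 genes (1.09%, 0.962% to 1.24%), H3K4me3 only at 6740 genes (31.5%, 30.9% to 32.1%) and neither at 14237 genes (66.5%, 65.9% to 67.1%). A gene that is not listed either lies below the calling threshold, with its signal unknown, or had its windows in a peak above 10 RPM. Such peaks were left out, among them Cxxc1 of 13.1 RPM at Cdk8 and H3K4me3 of 27.1 RPM at Brd3. The word "only" thus means that the other list kept no window there.

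Over the gene body plus 10 kb upstream the share of genes with Cxxc1 was larger. Cxxc1 was listed at 2469 genes (11.5%) and H3K4me3 at 9256 genes (43.2%). Both were listed at 1501 genes (7.01%, 6.68% to 7.36%), Cxxc1 only at 968 genes, H3K4me3 only at 7755 genes and neither at 11186 genes. Genes with Cxxc1 at the promoter made up 17.5% of those with Cxxc1 in either region, and genes with it in the body alone made up 65.8%. Of the 234 genes with Cxxc1 only at the promoter, 52 had H3K4me3 elsewhere in the gene or upstream. Of the 6740 with H3K4me3 only at the promoter, 884 had Cxxc1 elsewhere.

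**Figure D1:**
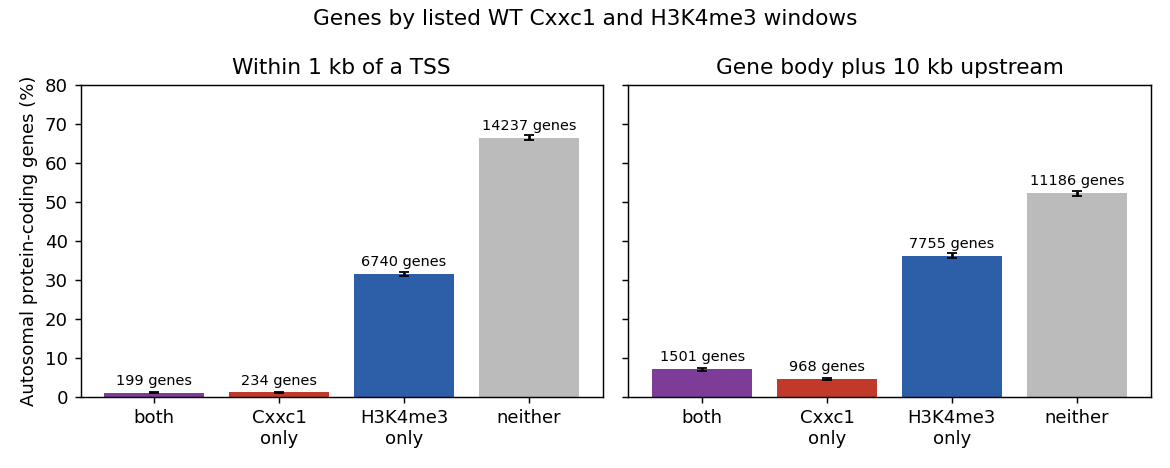
Bars give the percentage of the 21410 autosomal protein-coding genes in each class, within 1 kb of a TSS on the left and in the gene body plus 10 kb upstream on the right, and error bars are 95% Wilson intervals. Genes with both were 199 at the promoter and 1501 in the larger region.

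The numbers behind these shares were small for Cxxc1. After leaving out 6 Cxxc1 and 27 H3K4me3 peaks above 10 RPM, the lists held 4324 Cxxc1 peaks and 14166 H3K4me3 peaks, whose medians were 1.7 RPM (about 15 tags) and 2.3 RPM (about 22 tags). The depth inferred from the value of 1 tag was 9.09 to 9.12 M tags for Cxxc1 and 9.46 to 9.47 M tags for H3K4me3. The 433 genes with promoter Cxxc1 rested on 415 peaks, and 42 of them shared a peak with a neighbour. The strongest Cxxc1 peak inside the limit was at Myc with 9.9 RPM, followed by Ppp2ca with 6.3 RPM, and the weakest one left out held 11.4 RPM. For H3K4me3 the peaks on either side of the limit held 10 and 10.1 RPM. Promoter H3K4me3 was listed at 32.4% of all genes and at 3 of 9 matched DP thymocyte markers. That count is near the share of all genes and does not tell the cell type. The 3 were Cd3e, Cd8a and Cd8b1, summing to 7.5 RPM, whereas Cd4, Rag1, Rag2, Dntt, Cd3d and Cd3g were not listed within 1 kb of a TSS. Within the same distance none of 7 myeloid markers was listed and 2 of 6 B cell markers were (Cd79b and Ebf1, 2.1 RPM). Of 6 thymic epithelial markers 1 was (Aire, 2.8 RPM), and of 4 erythroid markers 1 was (Klf1, 0.9 RPM). Only in the body or upstream was H3K4me3 listed at the myeloid markers Elane (3.1 RPM), Csf1r (2.0 RPM) and Mpo (1.9 RPM). The same held for Cd4 (2.2 RPM), Cd3d and Cd3g (2.9 RPM each). Cxxc1 was listed in the body or upstream of Ebf1 (2.8 RPM) and Pax5 (3.2 RPM) and of no myeloid, epithelial or erythroid marker. The part of other cell types in the lists was not tested.

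Promoter H3K4me3 was listed more often at genes with Cxxc1 than at the others. It was present at 46% of genes with promoter Cxxc1 (41.3% to 50.7%, 199 of 433) and at 32.1% of genes without it (31.5% to 32.8%, 6740 of 20977), a difference of 13.8 percentage points (Newcombe interval 9.15 to 18.6). The difference was found at genes of low and middle CpG content around the outermost 5′ TSS and was not detectable at those of high CpG content. Genes were split into 5 classes of equal size by the observed to expected CpG ratio within 500 bp of that TSS. Both lists were scored at any TSS, so a gene of a low class can carry its windows at another TSS. The CpG ratio of other TSS was not tested. In CpG class 2 (0.185 to 0.411), H3K4me3 was at 35.1% of genes with Cxxc1 (20 of 57) and at 12.4% of those without, a difference of 22.7 points (11.6 to 35.7). In CpG class 3 (0.411 to 0.665) the shares were 44.9% and 34.9%, a difference of 10 points (0.811 to 19.6). In class 4 (0.665 to 0.811) both shares were 51.3%, with an interval of the difference from -9.03 to 8.91 points. In class 5 (0.811 to 1.21) they were 57.4% and 58%, with an interval from -9.82 to 8.22 points. Class 1 held only 35 genes with promoter Cxxc1, 4 of them with H3K4me3 (11.4%, 4.54% to 26%), against 4.99% of the others, and the interval of the difference ran from -0.492 to 21 points.

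The same order was seen with Cxxc1 anywhere in the body or upstream region. Promoter H3K4me3 was at 43.9% of 2469 genes with Cxxc1 (41.9% to 45.8%) and at 30.9% of 18941 genes without it (30.3% to 31.6%). The difference was 10.6 points (6.1 to 16.6) in CpG class 1, 13.1 points (8.87 to 17.8) in class 2 and 6.39 points (2.23 to 10.7) in class 3. It was 0.669 points (-3.51 to 4.82) in class 4 and -0.0256 points (-4.14 to 4.01) in class 5. Longer genes offer more windows, and Cxxc1 was listed at 2.62% of the shortest of 5 equal classes of gene length (0.054 to 3.29 kb) and at 28.8% of the longest (54.5 to 4430 kb). Within length classes the difference in H3K4me3 remained, at 18.6 points (10.6 to 27.8) in class 1, 12.3 points in class 2, 6.29 points in class 3, 7.24 points in class 4 and 6.98 points (3.73 to 10.2) in the longest. Intervals treat genes as independent, although 564 of the 2469 genes shared a Cxxc1 peak with another gene.

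**Figure D2:**
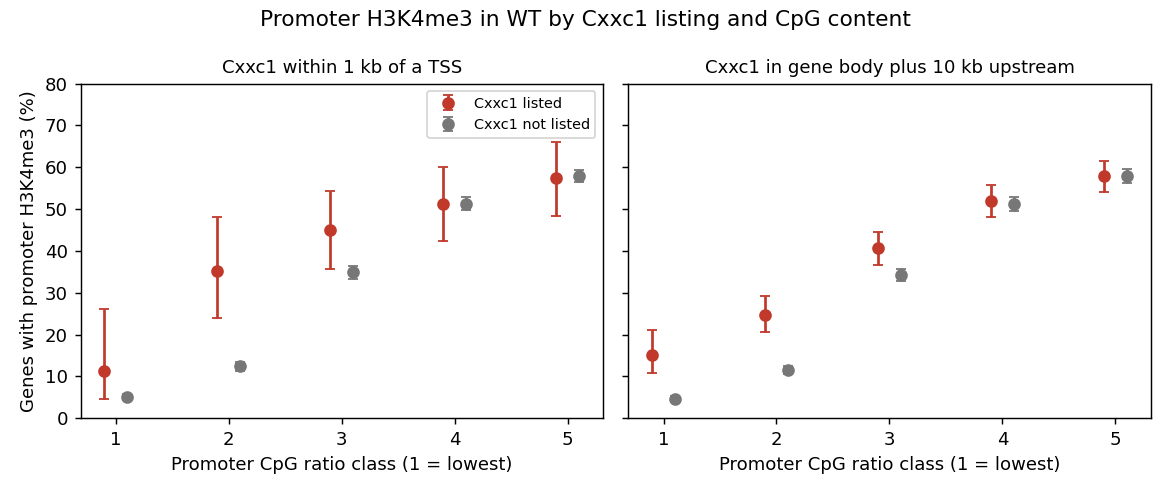
Points give the percentage of genes with promoter H3K4me3, with 95% Wilson intervals, in 5 classes of the CpG ratio around the outermost 5′ TSS. Genes with Cxxc1 are red and those without it grey. Cxxc1 was scored within 1 kb of a TSS on the left and in the body plus 10 kb upstream on the right. The red points stood above the grey ones in classes 2 and 3, and the pairs lay within 1 point of each other in classes 4 and 5.

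The share of genes with promoter H3K4me3 was close for each place of Cxxc1 in the gene. The share was 46% with Cxxc1 at the promoter, 44.7% (39.7% to 49.8%) of 367 genes with it only upstream, 43% (40.6% to 45.4%) of 1627 with it only in the body and 45.5% (31.7% to 59.9%) of 44 with it in both of the latter. The 4 intervals overlapped one another. Genes with none stood at 30.9% (30.3% to 31.6%).

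The summed Cxxc1 and H3K4me3 values of a promoter were nearly uncorrelated within 1 kb of a TSS. Promoter Cxxc1 had a median of 1.5 RPM (1.4 to 1.6) both in the 199 genes with H3K4me3 and in the 234 without it. Promoter H3K4me3 had a median of 2.5 RPM (2.4 to 2.8) in genes with Cxxc1 and 2.4 RPM (2.3 to 2.4) in the 6740 without it, over a median of 7 and 6 windows. Across the 199 genes Spearman's rho between the summed RPM values was 0.03 and Pearson's r was 0.12, and r was 0.01 over 198 genes without Myc. With promoters of 500 bp rho was 0.19. Split into 3 classes by rising Cxxc1, the genes had H3K4me3 medians of 2.5 RPM (2.2 to 2.8), 2.4 RPM (2.2 to 2.8) and 2.6 RPM (2.4 to 2.9). Over the body plus upstream region, rho was 0.14 and r was 0.51 across 1501 genes, and gene length itself had an r of 0.59 with Cxxc1 and 0.55 with H3K4me3. Per kb of gene, rho was 0.70 and r was 0.54, but both quantities then share the gene length as divisor. These are correlations across genes of 1 library each, and genes are not replicates.

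**Figure D3:**
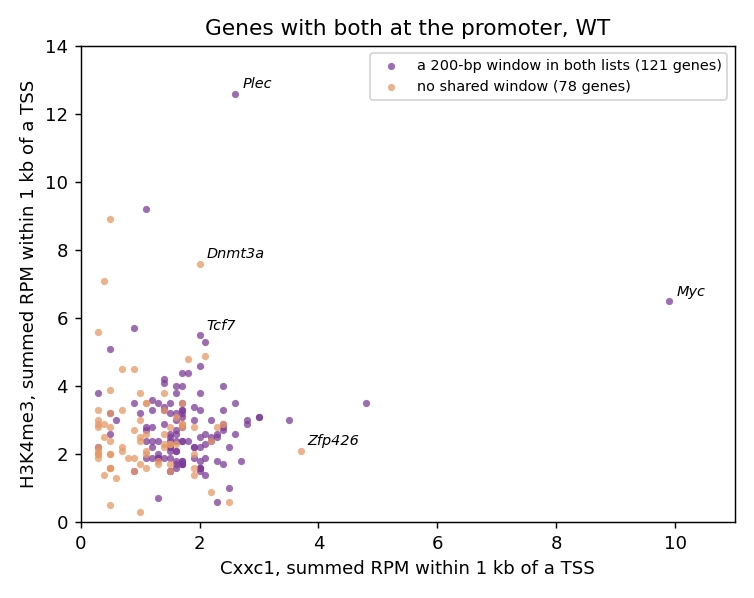
Each point is 1 of the 199 genes with both at the promoter, with summed Cxxc1 RPM within 1 kb of a TSS on the horizontal axis and summed H3K4me3 RPM on the vertical axis, coloured by whether a 200-bp window was in both lists. Myc lay far to the right at 9.9 RPM of Cxxc1 and Plec at the top with 12.6 RPM of H3K4me3, and the remaining genes formed a cloud with no visible slope.

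Cxxc1 and H3K4me3 often occupied different windows of the same promoter. Of the 199 genes with both, 121 (60.8%, 53.9% to 67.3%) had at least 1 window in both lists, and by the rule their windows had to lie within the same promoter regions. Among Cxxc1 windows at these promoters, 361 of 751 (48.1%, 44.5% to 51.6%) were also H3K4me3 windows. That interval treats windows as independent, although they lie side by side in peaks and neighbouring genes can share them, so it may be too narrow. In the 78 genes without a shared window, the nearest H3K4me3 window started a median of 800 bp away (quartiles 400 and 8150 bp), and under the rule distances above 2 kb need more than 1 TSS. For the 234 genes with Cxxc1 only, the median distance to the nearest H3K4me3 window was 47900 bp (quartiles 19250 and 175000 bp), and 15 (6.41%) had one within 5 kb. Over the body plus upstream region, 273 of 1501 genes with both (18.2%, 16.3% to 20.2%) had a shared window.

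Around the TSS both lists reached their maximum just downstream. Over all genes, H3K4me3 was listed most often 200 bp downstream of the window that holds the outermost 5′ TSS, at 5243 genes (24.5%), 13.8 times its mean share at 4 kb or more from the TSS (1.77%). Cxxc1 was listed most often at 400 bp downstream, at 146 genes (0.682%), 2.82 times its share at the same far distances (0.242%). In the 199 genes with both, whose choice fixes a rise near a TSS, the maxima lay at the same places, at 64 genes (32.2%) for Cxxc1 and 145 genes (72.9%) for H3K4me3. Cxxc1 windows there were more frequent in the 1 kb downstream (283) than in the 1 kb upstream (186), as were those of H3K4me3 (539 and 376).

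**Figure D4:**
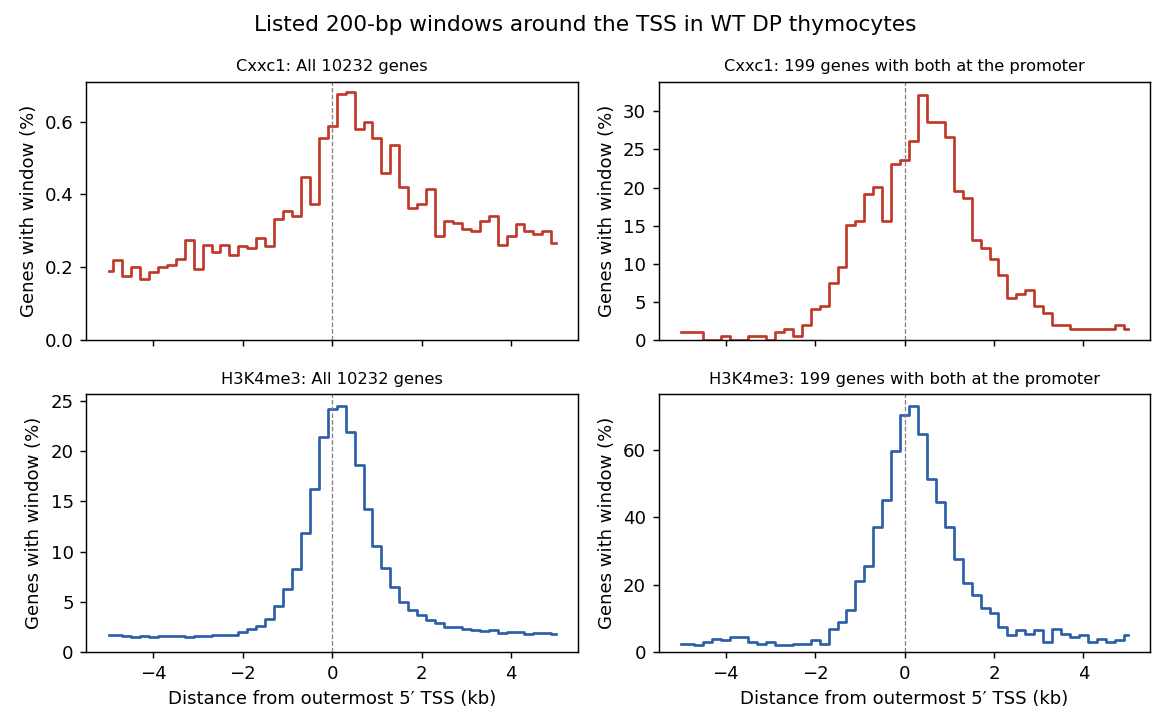
Lines give the percentage of genes with a listed window by distance from the outermost 5′ TSS, for Cxxc1 (top) and H3K4me3 (bottom). Percentages are over all 21410 genes (left) and over the 199 genes with both at the promoter (right). The gene number in the titles of the left panels counts only genes with a listing. Cxxc1 was highest at 400 bp and H3K4me3 at 200 bp downstream of the TSS, and the vertical scales differ between panels.

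Promoters with Cxxc1 only were poorer in CpG than those with H3K4me3. The CpG ratio was again taken around the outermost 5′ TSS, whereas the classes used any TSS. The median CpG ratio was 0.738 (0.698 to 0.764) in genes with both, 0.751 (0.745 to 0.756) with H3K4me3 only, 0.616 (0.555 to 0.677) with Cxxc1 only and 0.361 (0.35 to 0.371) with neither. A ratio below 0.3 was found at 23.1% of genes with Cxxc1 only and at 8.04% of genes with both. Genes with both were longer, with a median of 35 kb (26.7 to 41.6), than those with H3K4me3 only, with 21.8 kb (20.9 to 22.6). At the level of single 200-bp promoter windows, those in both lists held a median of 12 CpG (11 to 14, 340 windows), those in the H3K4me3 list alone 11 (10 to 11, 38940 windows), those in the Cxxc1 list alone 5 (4 to 5, 1222 windows) and those in neither list 2 (267660 windows). Windows without any CpG made up 0.882% of those in both lists, 5.16% (4.05% to 6.54%) of those in the Cxxc1 list alone and 15.8% of those in neither. The intervals over windows treat adjacent windows as independent and may be too narrow. The Kcnt1 window printed above, with 1 CpG, and that of 2700081O15Rik, with 11, lie on either side of the median of 5.

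Among the genes with both, Myc, a transcription factor gene of cell growth, had the most promoter Cxxc1, 9.9 RPM, with 6.5 RPM of H3K4me3. Zfp426, a zinc finger gene, had 3.7 RPM of Cxxc1 and 2.1 RPM of H3K4me3 but no shared window. Megf9 had 3.5 RPM of Cxxc1 and 3.0 RPM of H3K4me3, with 7 shared windows. Brwd1 and Cdc42bpa, a kinase gene of the cytoskeleton, each had 3.0 RPM of Cxxc1 and 3.1 RPM of H3K4me3. Large, a glycosyltransferase gene, had 2.8 and 2.9 RPM, Spnb1, which encodes a spectrin of the membrane skeleton, 2.8 and 3.0 RPM, Mpzl1, a surface glycoprotein gene, 2.7 and 1.8 RPM, and the heat shock protein gene Hspa4l 2.6 and 2.6 RPM, in the same order. These genes were chosen for their Cxxc1 value, and apart from Myc their H3K4me3 lay between 1.8 and 3.1 RPM. Plec, a gene of the cytoskeletal linker plectin that was picked after the values were seen, had 2.6 RPM of Cxxc1 and 12.6 RPM of H3K4me3, with 6 shared windows.

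The Cxxc1 windows of Myc (ENSMUSG00000022346.8, chromosome 15, 61816946 to 61821929, plus strand, mm9) lay over its coding exons. Windows from 61818801 to 61820000 held 0.5, 1.2, 1.6, 2.0, 2.6 and 2.0 RPM, and windows from 61820801 to 61821600 held 1.1, 1.9, 1.6 and 0.4 RPM, with none listed over the intron between them. Of 10 windows with any coding base 9 were listed, summing to 14.4 RPM, and of 16 windows of the gene without a coding base 1 was, at 0.5 RPM. H3K4me3 at Myc had another shape, with 9 of the 16 windows without a coding base listed (3.5 RPM, at most 0.7 RPM in a window) and 5 of the 10 coding ones (1.4 RPM). The Cxxc1 value of Myc within 1 kb of a TSS thus came from windows over an internal coding exon near TSS annotated downstream of the outermost one. Of the 12 windows of at least 1.5 RPM in the Cxxc1 list after the limit, 6 lay in Myc, 4 in the phosphatase gene Ppp2ca and 2 outside protein-coding genes. What gave Myc its shape was not tested.

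**Figure D5:**
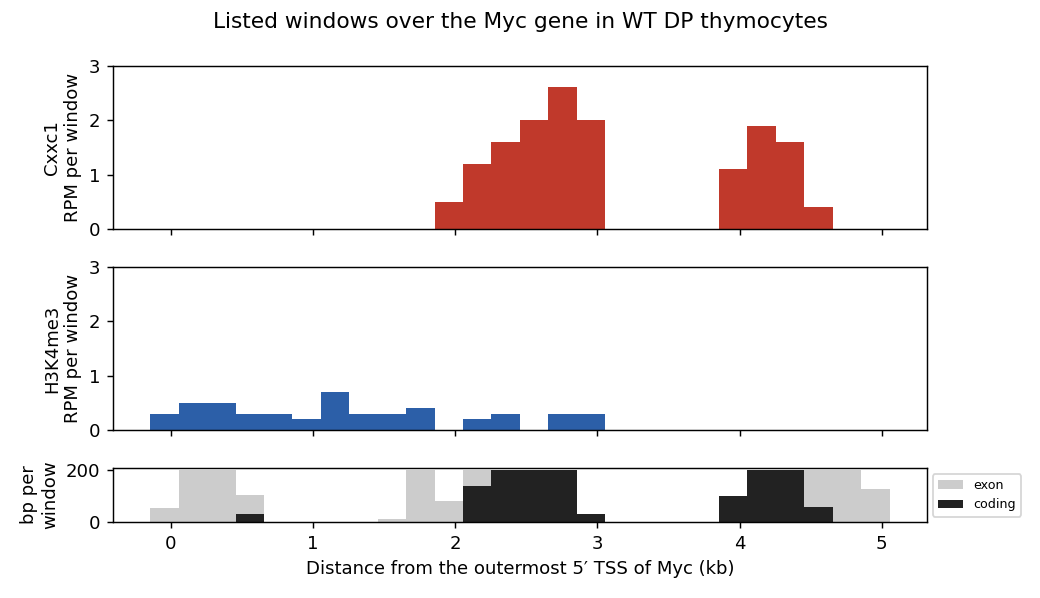
Bars in the upper panels give RPM per listed 200-bp window of Cxxc1 and of H3K4me3 across Myc, by distance from its outermost 5′ TSS, and bars in the lowest panel give the exon (grey) and coding (black) bases in each window. Cxxc1 reached 2.6 RPM over the coding exons and was not listed over the intron between them, while H3K4me3 did not exceed 0.7 RPM and lay mostly upstream of the coding exons.

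Within the 10 RPM limit, the genes with the most promoter Cxxc1 and no promoter H3K4me3 had at most 3.9 RPM of Cxxc1. Kcnt1, a sodium-activated potassium channel gene, had that value, and H3K4me3 of 5.9 RPM elsewhere in the gene. Chrna7, a nicotinic acetylcholine receptor gene, had 2.8 RPM of Cxxc1 and no H3K4me3 in either region. Myt1, a zinc finger gene of neural cells, had 2.7 RPM, 2700081O15Rik 2.9 RPM, Accsl 2.8 RPM, the tetraspanin gene Tspan31 2.8 RPM, 1300010F03Rik 2.6 RPM and the adrenoceptor gene Adra1b 2.5 RPM.

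The genes with the most promoter H3K4me3 among those without Cxxc1 in either region had 7.7 to 13.4 RPM, the values they were chosen for. Peaks above 10 RPM were left out of both lists before this ranking. Rara had 13.4 RPM, Pitpnm2, a phosphatidylinositol transfer gene, 11.7 RPM, the septin gene Sept9 11.3 RPM and the homeobox gene Tgif1 9.9 RPM. They were followed by the zinc finger gene Zbtb7a (8.5 RPM), the bromodomain gene Brd2 (8.4 RPM), the small Maf gene Mafg (8.0 RPM), Nbeal2 (7.9 RPM), the ribosomal DNA transcription factor gene Ubtf (7.8 RPM) and Ankrd24 (7.7 RPM).

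Over the body plus upstream region, the 2 largest Cxxc1 sums among genes with promoter H3K4me3 came from gene models that span megabases. Gm20388 had 31.3 RPM over a model of 4430 kb and Fgfr2, a fibroblast growth factor receptor gene, 26.9 RPM over a model of 3010 kb, in 18 and 12 peaks. Myc followed with 14.9 RPM over 4.98 kb. Bcl11b, a zinc finger gene required for commitment to the T lineage, had 11.9 RPM in 33 windows of 4 peaks, none at the promoter, and promoter H3K4me3 of 2.3 RPM with 34.2 RPM over the whole region. Rcsd1 (8.6 RPM), Cgnl1 (8.5 RPM), Lpp (8.5 RPM), the calcium channel gene Itpr2 (8.0 RPM) and the chromatin remodelling gene Arid1b (7.7 RPM) were next, with Arhgap26 (8.8 RPM) above them. Without promoter H3K4me3, the leading genes were 1700112E06Rik (12.3 RPM over 1040 kb), the calcium channel gene Cacna1d (11.6 RPM, with 14.7 RPM of H3K4me3 in the body), Hivep3 (8.3 RPM) and the neural genes Nell2 (7.6 RPM) and Dab1 (7.2 RPM).

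Of 30 genes of T cell receptor signalling 17 (56.7%, 39.2% to 72.6%) had promoter H3K4me3, against 32.4% of all genes, none had promoter Cxxc1, against 2.02% of all genes, and 9 (30%, 16.7% to 47.9%) had Cxxc1 in the body or upstream, against 11.5% of all genes. The share of all genes with Cxxc1, weighted to the same 5 length classes as the list, was 18.3%, which lies inside the interval, and 21 of the 30 had no Cxxc1 in either region. Both were carried by Lck, the kinase that starts receptor signalling (2.3 RPM of Cxxc1 and 4.5 RPM of promoter H3K4me3), and by Zap70, the kinase that follows it (1.5 and 4.8 RPM). Cd247, the zeta chain of the receptor, had 1.5 and 2.4 RPM, Nfatc2 had 1.7 and 4.7 RPM and Nfatc3 1.8 and 2.4 RPM. The adaptor genes Grap2 (0.7 RPM) and Lcp2 (1.9 RPM) and the phosphatase gene Ptprc (1.9 RPM) had Cxxc1 without promoter H3K4me3.

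Of 26 matched coreceptors and thymocyte regulators, 19 (73.1%, 53.9% to 86.3%) had promoter H3K4me3, against 32.4% of all genes. Cxxc1 in the body or upstream was listed at 10 (38.5%, 22.4% to 57.5%), and all 10 also had promoter H3K4me3. All genes weighted to the same length classes stood at 17.5%, and 6 of the 10 were among the 11 list members in the longest class, where 28.8% of all genes had Cxxc1. Beside Bcl11b they were Runx1 (6.0 RPM of Cxxc1 and 6.1 RPM of promoter H3K4me3), Tcf12 (3.6 and 2.3 RPM), Satb1 (1.8 and 7.0 RPM), Tcf7 (2.0 and 5.5 RPM), Cd8a (1.6 and 2.7 RPM), Tox (1.6 and 3.4 RPM), Egr1 (1.6 and 3.3 RPM), Runx3 (1.5 and 4.0 RPM) and Gata3 (1.4 and 1.8 RPM). Tcf7, a transcription factor gene of early T cells, was the member with Cxxc1 at the promoter itself, in 4 windows shared with H3K4me3. Notch1 (5.0 RPM), Tcf3 (6.1 RPM), Lef1 (4.3 RPM), Ikzf1 (3.9 RPM), Myb (3.9 RPM), Zbtb7b (3.8 RPM), Id3 (3.8 RPM) and Cd8b1 (3.0 RPM) had promoter H3K4me3 without Cxxc1. The recombination genes Rag1, Rag2 and Dntt had neither.

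Genes of chromatin regulation carried H3K4me3 at most promoters, against 32.4% of all genes. Of 15 genes of the Setd1 complexes, to which Cxxc1 itself belongs, and of the Mll complexes, 11 had promoter H3K4me3. The methyltransferase gene Mll2 was the 1 with Cxxc1 (3.0 RPM), 6.67% against 14.3% of all genes at these lengths. The Cxxc1 gene, a member of this list, had a Cxxc1 peak of 65 RPM that the limit of 10 RPM left out. Among 14 genes of DNA methylation and CpG binding, 12 had promoter H3K4me3 and 4 had Cxxc1 (28.6%, 11.7% to 54.6%), against 19.3% of all genes at these lengths and 11.5% of all genes. They were the methyltransferase gene Dnmt3a, with 2.0 RPM of Cxxc1 and 7.6 RPM of H3K4me3 at the promoter, the CXXC gene Kdm2b (2.2 RPM of Cxxc1 in the body), the methyl-CpG binding gene Mbd2 (1.6 RPM) and Tet1 (2.2 RPM), which had no H3K4me3. Of 15 Polycomb genes 13 had promoter H3K4me3 and 2 had Cxxc1 (13.3%, against 13.7% at these lengths), Suz12 at the promoter (1.5 RPM, with 2.6 RPM of H3K4me3) and Rnf2 (1.7 RPM). Cell cycle genes had promoter H3K4me3 at 11 of 20 and Cxxc1 at 3 (15%, 5.24% to 36%, against 10.2% of all genes at these lengths). These 3 were Myc, Cdk4 (2.3 and 2.6 RPM at the promoter) and Ccnd3. Apoptosis genes had promoter H3K4me3 at 8 of 15. Among them Bcl2 (2.0 RPM) was the 1 with Cxxc1 (6.67%, 1.19% to 29.8%, against 12.6% of all genes at these lengths). Both shares of all genes lay inside the intervals of the lists.

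The ribosomal, mitochondrial ribosomal and proteasome families had promoter H3K4me3 more often than all genes did (32.4%). Ribosomal protein genes had promoter H3K4me3 at 46 of 77 (59.7%, 48.6% to 70%) and Cxxc1 in the body or upstream at 8 (10.4%, 5.36% to 19.2%), below 11.5% of all genes but above the 4.25% of all genes weighted to their short lengths. Mitochondrial ribosomal protein genes had 46.8% and 6.49% of 77, and proteasome genes 47.5% and 7.5% of 40, with 7.26% and 9.17% for Cxxc1 in all genes at these lengths. Zinc finger (Zfp) genes had promoter H3K4me3 at 34% and Cxxc1 at 7.73% of 362. Hox genes had them at 30% and 10% of 40. All genes at the lengths of these 2 families had Cxxc1 at 9.67% and 5.44%. Replication-dependent histone genes, with a median length of 0.53 kb, had promoter H3K4me3 at 11 of 66 (16.7%, 9.57% to 27.4%). None had Cxxc1 (upper limit 5.5%), against 2.99% of all genes at these lengths. The lists used uniquely mapped reads only, and how much signal this took from genes with similar copies was not tested.

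Neuronal receptor and channel genes, with a median length of 153 kb, had promoter H3K4me3 at 1 of 24 (4.17%, 0.739% to 20.2%), against 32.4% of all genes. They had Cxxc1 at 6 (25%, 12% to 44.9%), among them the glutamate receptor genes Grin2a (4.1 RPM), Grin2b (3.3 RPM) and Gria1 (1.9 RPM) without H3K4me3 in either region. All genes weighted to these lengths stood at 24.9%. Olfactory receptor genes, with a median length of 0.96 kb, had promoter H3K4me3 at 1 of 1106 (0.0904%, 0.016% to 0.51%), against the same 32.4% of all genes. They had Cxxc1 at 7 (0.633%, 0.307% to 1.3%), against 2.92% of all genes at these lengths. None of 321 vomeronasal receptor genes was in either list, with upper limits of 1.18%. Of all genes, 32.4% had promoter H3K4me3, and 5.83% of all genes at these lengths had Cxxc1. The limit of uniquely mapped reads holds for both receptor families as well.

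H3K4me3 in the Cxxc1-deficient library was listed at 1303 promoters (6.09%). The rule for the classes did not use this list, but the control of the WT H3K4me3 calls is not stated and Cxxc1-deficient ChIP DNA served as a control in the study, so the lists may not be independent. It was listed at 30 of the 199 genes with both in WT (15.1%, 10.8% to 20.7%) and at 853 of the 6740 with H3K4me3 only (12.7%, 11.9% to 13.5%), and the intervals overlapped. It was listed at 11 of the 234 genes with Cxxc1 only (4.7%, 2.64% to 8.22%) and at 409 of the 14237 with neither (2.87%, 2.61% to 3.16%). Among genes with WT promoter H3K4me3, the shares were 16.5% (11.6% to 22.9%) with Cxxc1 only upstream, 13.1% (10.8% to 15.8%) with Cxxc1 only in the body and 12.5% (11.7% to 13.4%) without Cxxc1. Of the named genes with both at the promoter other than Plec, Brwd1 (1.7 RPM), Mpzl1 (1.5 RPM), Cdk4 (1.6 RPM) and Dnmt3a (1.7 RPM) were listed in the deficient library. Myc, Zfp426, Megf9, Cdc42bpa, Large, Spnb1, Hspa4l, Suz12 and Tcf7 were not. The deficient list held 2961 peaks against 14166 in WT at an inferred depth of 9.43 to 9.45 M tags, and the part of the yield of this single library in these shares was not tested.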

How the data were processed

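Per the study's methods, formaldehyde-fixed, sonicated chromatin was immunoprecipitated, 50-bp reads were processed with CASAVA 1.8.2, placed on mm9 and, where unique, passed to SICER 1.1 with input and the Cxxc1-deficient ChIP as controls. The aligner, the treatment of duplicates and the control used for H3K4me3 are not given in the sources used here, and each can change which regions are listed. Inside each called region the authors deposited 200-bp windows with RPM values (tags per 1000000 mapped tags) at 1 decimal. The value of 1 tag, and so the depth, was inferred from the decimals that occur.

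Peaks were built by joining windows across gaps of up to 2 windows, and autosomal peaks of at most 10 RPM were kept. Genes and TSS were those of protein-coding transcripts in GENCODE vM1 on the same assembly, and an overlap of at least 1 bp counted. Gene sums add the RPM of the listed windows. Cxxc1 shares at the lengths of a list weight the all-gene share of 5 length classes by the list's members. Shares carry 95% Wilson intervals and their differences Newcombe intervals. No test was run, since each list came from 1 library. Python 3.11.15, numpy 2.4.6, pandas 2.3.3, scipy 1.17.1, pysam 0.24.0 and samtools 1.23.1 were used, and the scoring was tested on simulated data. Sequences were read from mm9. The input and the Cxxc1 ChIP of deficient cells were not analysed here.

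The members, gene lists and comparisons were chosen with earlier results of these data known. Named genes were members of the lists, the 10 with the most promoter Cxxc1 in genes with both and in genes with Cxxc1 only, the 10 with the most promoter H3K4me3 in genes without Cxxc1, and the 10 with the most Cxxc1 in the body plus upstream region with and without promoter H3K4me3. Some genes that these rules select are not reported here. Ptcra and Syn1 were not matched to an autosomal gene. The alternatives tried were other promoter widths, the outermost TSS only, other upstream lengths, the stronger 50% of peaks, equal numbers of peaks, no upper limit with chromosomes X and Y, window midpoints, adjacent windows only and, chosen after seeing the data, leaving out genes that share a Cxxc1 promoter peak.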

Additional observations from a re-analysis of the deposited data

Results flagged for a closer look

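The Cxxc1 gene itself carried a Cxxc1 peak of 65 RPM (chromosome 18, 74376001 to 74381400, mm9), which the limit of 10 RPM kept out of every comparison above, and this signal outside the values compared is why it is given here. All 20 windows of the gene with a coding base were listed, with a median of 2.3 RPM, and 5 of the 8 without one, with a median of 1 RPM. Split at 100 coding bases, the 11 windows with at least that many were all listed, with a median of 1.9 RPM. Of the 17 windows with fewer or none, 14 were listed, with a median of 2.4 RPM. H3K4me3 was listed in 8 of the 20 windows with a coding base and in 6 of the 8 without one, at 0.3 to 0.7 RPM. Myc, inside the limit, had Cxxc1 in 9 of 10 coding windows and 1 of 16 others. What gave rise to either peak was not tested.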

How the results depend on the processing

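Of 110 alternative values for 17 results under 11 alternatives, 75 stayed within the 95% interval or within 1.5 times the reported count, 35 moved, and no share or count changed its direction. Spearman's rho, near 0 as reported, changed sign to -0.04 with the stronger 50% of peaks. No value moved with the gene body only, window midpoints, adjacent windows only or genes sharing a Cxxc1 promoter peak left out. H3K4me3 stayed more frequent at genes with Cxxc1 than without under all alternatives. As fewer peaks were used by construction, the stronger 50% gave 84 genes with both and 4364 with H3K4me3 only at the promoter, 624 with both in the body plus upstream region, H3K4me3 shares of 30.5% with and 20.6% without promoter Cxxc1 and of 30.9% and 20.1% for the larger region, shared windows in 67.9%, a CpG ratio of 0.758 with H3K4me3 only, and Cxxc1-deficient shares of 10.7% (both) and 8.96% (H3K4me3 only). As many H3K4me3 as Cxxc1 peaks gave 102 genes with both and 2977 with H3K4me3 only at the promoter, 752, 1717 and 3495 with both, Cxxc1 only and H3K4me3 only in the larger region, and shares of 23.6% and 14.2% (promoter) and 21.5% and 13.4% (larger region). The outermost TSS alone gave shares of 39.9% and 30.2%, shared windows in 74.1%, a CpG ratio of 0.759 and a deficient share of 11.7%. A promoter of 2 kb gave 33.4% without Cxxc1, shared windows in 51.3% and a CpG ratio of 0.745, and one of 500 bp gave 31.2%, 71.1% and a Spearman's rho of 0.19. No upper limit with X and Y gave 30.8% and 29.6% without Cxxc1 at the promoter and in the larger region, and 50 kb upstream gave 2880 genes with both and 29.9%. Where construction does not set the change, the cause was not tested. Median peaks held about 15 to 22 tags, so single genes rest on few tags and an unlisted gene is not one without signal. No paired analysis was possible because there was 1 library per antibody and genotype.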
